A study of Mus musculus with 30 samples.

Results

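Neurexins, neuroligins and LRRTM proteins are adhesion proteins that meet across the synaptic cleft, and 9 of the 17477 genes in the deposited hippocampal count table encode members of these families. The members were taken by gene symbol, matched to the Ensembl IDs of the table, and are Nrxn2 and Nrxn3 for the neurexins, Nlgn1, Nlgn2 and Nlgn3 for the neuroligins, and Lrrtm1, Lrrtm2, Lrrtm3 and Lrrtm4 for the LRRTM proteins. RNA was measured in the hippocampus of 30 adult C57 BL/6J mice, 1 library per mouse, in 4 groups: females after social isolation (SI, n = 8), females in group housing (GH, n = 7), isolated males (n = 7) and group-housed males (n = 8). SI mice lived 1 to a cage from weaning until they were killed as adults, GH mice shared cages over the same time, and the labels and methods name no transgene, deletion or drug. Each comparison asked whether isolation changed the level of these genes within a sex, or differently in the sexes.

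Neurexins are presynaptic receptors. Their extracellular part binds postsynaptic neuroligins and LRRTM proteins, and this contact helps to organise transmitter release on one side and receptors on the other. Neuroligin 1 is known mainly from excitatory synapses and neuroligin 2 from inhibitory synapses, whereas neuroligin 3 is found at both. LRRTM proteins act at excitatory synapses, where they help to hold AMPA receptors. In the hippocampus these proteins contribute to the maturation and plasticity of the connections between the dentate gyrus, CA3 and CA1.

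Libraries held between 18809307 and 100844898 counts on genes (median 41297502), and the lowest count of any of the 9 genes in any mouse was 365, for Lrrtm3. Markers of dentate granule cells, CA1 and CA3 had counts in every library. SI males 25, 33 and 39 stood apart from the other mice before any comparison was made. In a principal component analysis of the males their first-component scores were 63.4 to 103.3 (54.2% of the variance), against -37.6 to 0.7 in the other 12 males. Their libraries also held less of long transcripts: the slope of a library on transcript length, in log2 CPM per doubling of length relative to the mean library, was -0.495 to -0.374 in these 3 mice and -0.139 to 0.185 in the other 27. All 3 are SI mice, so some of the results in males are also given without them. For Nrxn2, Nlgn3, Lrrtm1, Lrrtm3 and Lrrtm4 the male Log2FC without them is not given. In that fit edgeR called 0 of 16241 genes.

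Nrxn2 had the highest level for its length and Lrrtm3 the lowest. Levels are CPM (counts scaled to library size) on a library scale set by the trimmed mean of M-values (TMM), and they were divided by the length of the longest annotated transcript to compare genes. Nrxn2 averaged 71.3 ± 8.73 CPM per kb over the 30 mice (SD, n = 30), Nlgn2 40.7 ± 7.48, Lrrtm1 37.3 ± 4.89 and Nrxn3 18.9 ± 4.24. Nlgn3 followed at 13.1 ± 1.62, Nlgn1 at 12.3 ± 1.77, Lrrtm2 at 7.94 ± 0.978, Lrrtm4 at 7.09 ± 0.611 and Lrrtm3 at 5.27 ± 0.639. Nrxn2 was above Nlgn2 in 30 of 30 mice and Nrxn3 above Nlgn3 in 30 of 30. Neighbours whose order did not hold in every mouse were Nlgn2 and Lrrtm1 (26 of 30 mice), Lrrtm1 and Nrxn3 (29 of 30), Nlgn3 and Nlgn1 (22 of 30) and Lrrtm2 and Lrrtm4 (26 of 30). In SI males the mean of Lrrtm1 (39.9 ± 6.43, n = 7) stood above that of Nlgn2 (39.2 ± 12.9), a difference far below the spread.

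Each family had 1 gene that supplied most of its level per length. Nlgn2, the neuroligin of inhibitory synapses, made up 61.3 ± 3.01% of the 3 neuroligins (SD, n = 30), and Lrrtm1 made up 64.6 ± 2.90% of the 4 LRRTM genes. Of the neurexin level measured here Nrxn3 held 21.0 ± 3.70% and Nrxn2 the rest. These shares depend on which length is used, because several transcripts come from each gene. When all annotated exons of a gene were taken as its length, Nrxn2 moved from the first to the third place at 34.4 CPM per kb, behind Nlgn2 at 39.1 and Lrrtm1 at 36.4, and Nlgn1 (12.3) stood above Nrxn3 (11.9). The 3 lowest places were held by Lrrtm2, Lrrtm4 and Lrrtm3 with either length.

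**Figure D1:**
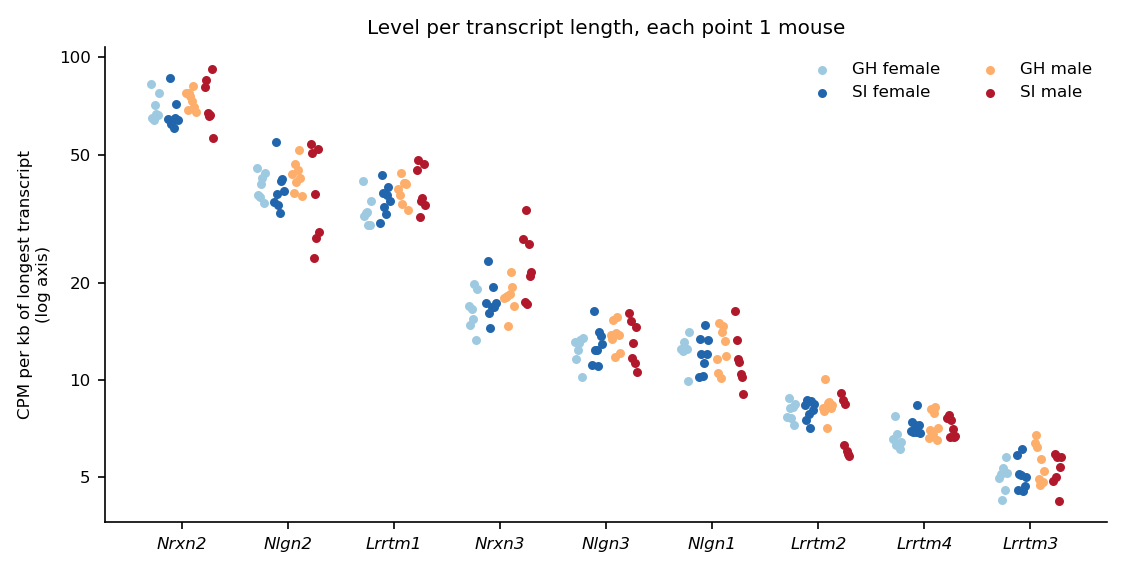
Level of each gene in CPM per kb of its longest transcript (log axis), 1 point per mouse, coloured by housing and sex, with genes in order of their mean over 30 mice. Nrxn2 lies above the other genes in all 30 mice, and the points of Nlgn2 and Lrrtm1, and of Nlgn3 and Nlgn1, overlap.

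Nrxn2 (ENSMUSG00000033768, chromosome 19, 6418731 to 6544169, plus strand, NCBIM37) encodes neurexin 2. In females its level was 427 to 553 CPM under GH (median 446) and 403 to 576 CPM under SI (median 429). The groups overlapped, with 3 of 8 SI females below the lowest GH mouse and 1, animal 45, above the highest. The Log2FC of SI against GH was -0.082 (95% interval -0.178 to 0.013, adjusted p = 0.329, edgeR quasi-likelihood test with Benjamini-Hochberg adjustment over all genes, as for every adjusted p of a Log2FC below). Among males the range was 453 to 544 CPM under GH (median 497) and 374 to 616 CPM under SI (median 449). SI males were spread to both sides of the GH males, 2 of 7 above and 4 of 7 below them, and the fitted Log2FC was 0.094 (-0.080 to 0.268, adjusted p = 0.629), although the SI mean (489 ± 85.9 CPM, SD, n = 7) was not above the GH mean (494 ± 32.0, n = 8). It was -0.012 without surrogate variables and -0.073 with the position digit of the sample titles as a factor. Exons of Nrxn2 overlap those of Slc22a12 on the opposite strand in GENCODE vM1. The strand setting of the counting is not given in the sources used here, so a part of the Nrxn2 counts, of unmeasured size, is uncertain.

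Nrxn3 (ENSMUSG00000066392, chromosome 12, 89961320 to 91573375, plus strand, NCBIM37), the gene of neurexin 3, showed the widest male difference of the 9 genes. GH males had 117 to 171 CPM (median 144) and SI males 137 to 266 CPM (median 172). Of the 7 SI males 4 were above every GH male, among them animals 25, 33 and 39 at 266, 209 and 172 CPM. The Log2FC in males was 0.245 (-0.027 to 0.517, adjusted p = 0.416) and 0.270 without these 3 mice (adjusted p = 0.742). With 1 male left out it ranged from 0.094, without SI male 7, to 0.348, without SI male 27. Female levels were 106 to 157 CPM under GH (median 132) and 115 to 185 CPM under SI (median 135), and the groups overlapped over most of this range. The female Log2FC was 0.072 (-0.089 to 0.232, adjusted p = 0.653).

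Nlgn1 (ENSMUSG00000063887, chromosome 3, 25330733 to 26032656, minus strand, NCBIM37), the neuroligin of excitatory synapses, showed Log2FC close to 0 in both sexes. Female levels were 43.4 to 61.5 CPM under GH (median 54.3) and 44.4 to 64.6 CPM under SI (median 52.7), with a Log2FC of -0.013 (-0.141 to 0.115, adjusted p = 0.934). Male levels were 44.2 to 65.7 CPM under GH (median 54.7) and 39.5 to 71.6 CPM under SI (median 49.7), with a Log2FC of -0.016 (-0.256 to 0.223, adjusted p = 0.967). The intervals leave room for a change of up to about -9.3% or 8.3% in females and -16.2% or 16.7% in males.

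Nlgn2 (ENSMUSG00000051790, chromosome 11, 69636624 to 69651286, minus strand, NCBIM37) fell into separate levels among the SI males. Animals 25, 33 and 39 had 133, 153 and 160 CPM, all below the other 12 males, which ranged from 207 to 301 CPM. The other 4 SI males had 210.0 to 301 CPM and the GH males 207 to 287 CPM (median 239), so apart from those 3 mice the housing groups overlapped. The group means, 218 ± 71.7 CPM under SI (SD, n = 7) and 240.3 ± 25.8 under GH (n = 8), put SI lower, whereas the fitted Log2FC, which takes up 2 surrogate variables, was 0.119 (-0.027 to 0.265, adjusted p = 0.456). Without surrogate variables it was -0.135 (adjusted p = 0.564), and without the 3 mice 0.189 (adjusted p = 0.742). In females Nlgn2 had 197 to 253 CPM under GH (median 226) and 184 to 304 CPM under SI (median 212), and the Log2FC was -0.045 (-0.146 to 0.056, adjusted p = 0.652).

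Nlgn3 (ENSMUSG00000031302, chromosome X, 98491178 to 98521302, plus strand, NCBIM37) showed the same 3 SI males at the bottom, at 99.9, 96.8 and 90.6 CPM against 100.6 to 138 CPM in the other 12 males. Its male Log2FC was 0.060 (-0.082 to 0.203, adjusted p = 0.717) with surrogate variables and -0.053 without them (adjusted p = 0.714). In females 3 of 8 SI mice were above the highest GH mouse, the range being 87.7 to 116 CPM under GH (median 111) and 94.6 to 140 CPM under SI (median 108). The Log2FC was 0.064 (-0.024 to 0.152, adjusted p = 0.419). In GENCODE vM1 an exon of Nlgn3 overlaps an exon of Med12 on the same strand, and reads from that stretch could belong to either gene.

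**Figure D2:**
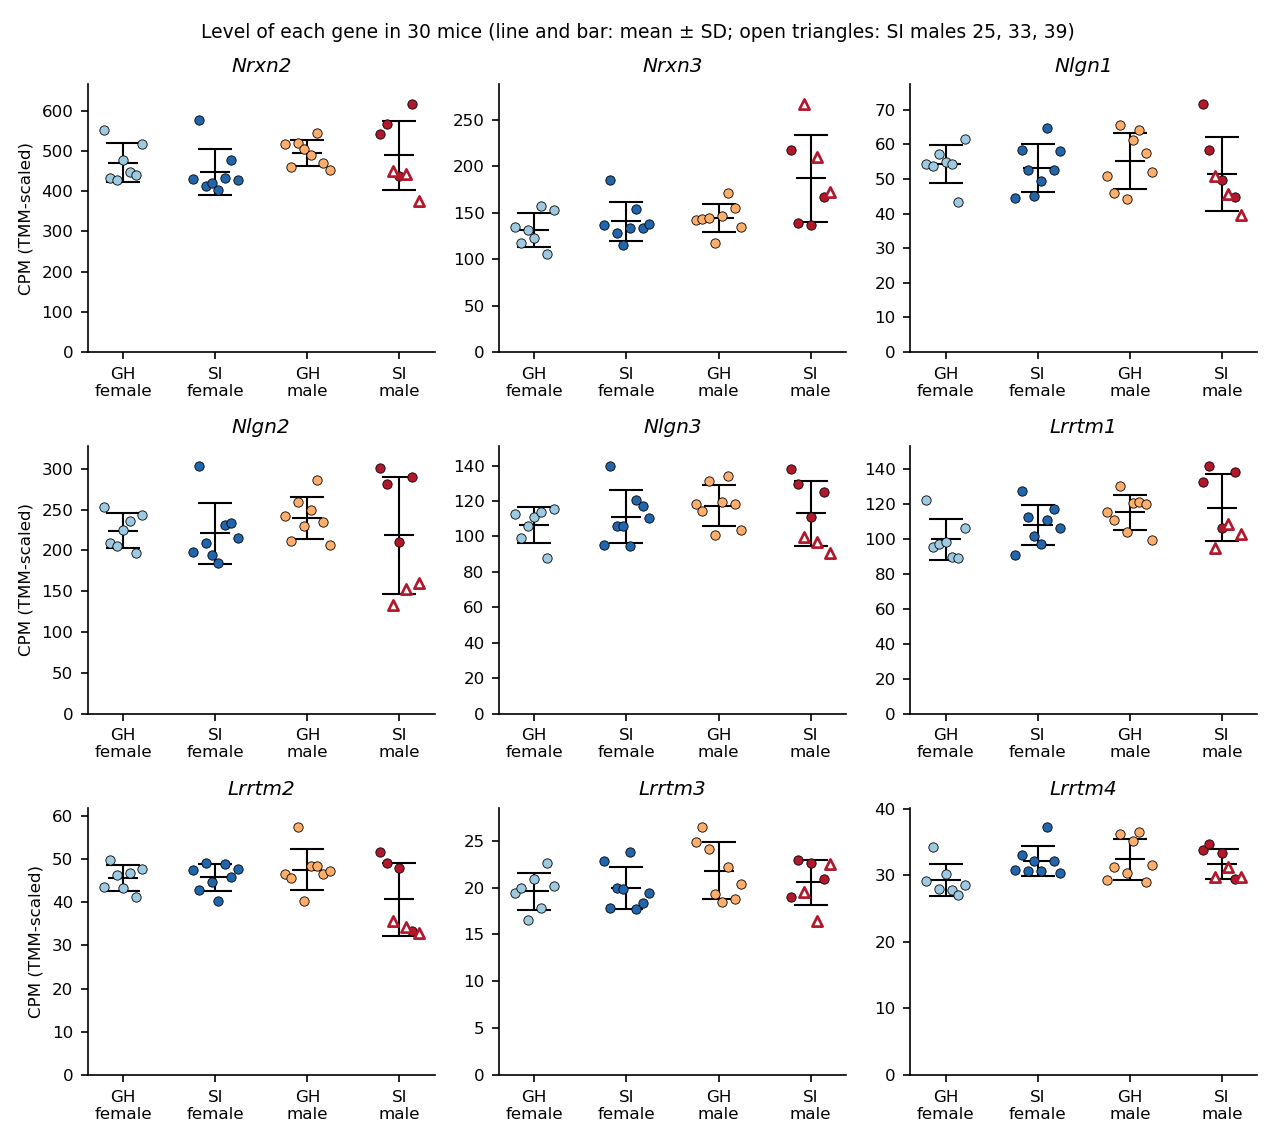
Level of each gene in CPM (axis from 0), 1 point per mouse, by housing and sex, with a line and bar for the group mean and SD. The open triangles are SI males 25, 33 and 39, which lie below the other 12 males for Nlgn2 and Nlgn3, and all 8 SI females lie above the GH median for Lrrtm4.

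Lrrtm1 (ENSMUSG00000060780, chromosome 6, 77192683 to 77207785, plus strand, NCBIM37) encodes the LRRTM protein with the highest level per length. GH females had 89.4 to 122 CPM (median 97.4) and SI females 91.0 to 128 CPM (median 109). The groups overlapped, with 6 of 8 SI females above the GH median and 1 above the highest GH mouse, animal 46. The Log2FC was 0.111 (0.030 to 0.193), a difference of 8.0% (2.1 to 14.3%), with an unadjusted p of 0.0105 in the edgeR test and an adjusted p of 0.113, which did not pass the threshold of 0.05. Without GH female 71 the Log2FC was 0.049, and without GH female 46 it was 0.172. Male levels were 99.3 to 130.1 CPM under GH (median 118) and 95.03 to 142 CPM under SI (median 109), where 3 of 7 SI males were above all GH males and 1 was below. The male Log2FC was 0.133 (-0.013 to 0.279, adjusted p = 0.412).

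Lrrtm4 (ENSMUSG00000052581, chromosome 6, 79968871 to 80760137, plus strand, NCBIM37) was the only one of the 9 genes with all SI females above the GH median. GH females had 27.1 to 34.3 CPM (median 28.6) and SI females 30.4 to 37.2 CPM (median 31.5). The SI females were all above the GH median (8 of 8), and 6 of 7 GH females were below the lowest SI female, the exception being animal 47. How many of all genes have such an order was not counted. Outside the families, all 8 SI females lay below the GH median for Dlg4, Dlg2, Apba1, Ctnna1, Ctnna2 and Ctnna3. The Log2FC of Lrrtm4 was 0.143 (0.028 to 0.259), a difference of 10.4% (1.9 to 19.6%). Its unadjusted p in the edgeR test was 0.018, against 20.2% of all genes under 0.05, and its adjusted p was 0.148. Males did not show this order: GH males had 28.9 to 36.6 CPM (median 31.4), SI males 29.5 to 34.7 CPM (median 31.2), and the Log2FC was 0.012 (-0.130 to 0.153, adjusted p = 0.958). The difference between the sexes was not past the threshold either, with an interaction of -0.084 (-0.244 to 0.076, adjusted p = 0.855).

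Markers of several cell types also had differences between the female groups. The summed level of 6 neuronal markers was 3603 to 4122 CPM in GH and 3883 to 4590 CPM in SI females, a difference of 0.110 on the log2 scale (exact permutation test, two-sided p = 0.0117, adjusted p = 0.0761 over 26 tests of marker sums). All 5 dentate granule cell markers had positive Log2FC in females, with Lct past the threshold and a sum of 137 to 255 CPM in GH and 176 to 278 CPM in SI. The 6 astrocyte markers were all lower, 3 of them (Slc1a3, Aldoc and Aldh1l1) past the threshold, and their sum was 2939 to 3692 CPM in GH and 2244 to 3368 CPM in SI (exact permutation test, two-sided p = 0.0112, adjusted p = 0.0761). Of the 6 interneuron markers 5 had positive Log2FC in females, with Npy past the threshold (0.146, adjusted p = 0.035). Endothelial markers, of which Flt1 passed the threshold, summed to 118 to 142 CPM in GH and 133 to 182 CPM in SI (exact permutation test, two-sided p = 0.0028, adjusted p = 0.0728). Over all genes 3.89% were called in females. The calls of single markers above were lost without surrogate variables and with the position digit of the sample titles as a factor. Under those settings edgeR called 0 genes in females. Of 9 alternative settings Flt1 (adjusted p = 0.0496) was called in 3, Npy in 4, Lct and Aldoc in 6, and Slc1a3 and Aldh1l1 in 7. The part of these cell types in the Lrrtm1 and Lrrtm4 values was not tested. In bulk tissue a different number of cells of a type and a different RNA content per cell cannot be told apart.

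Lrrtm2 (ENSMUSG00000071862, chromosome 18, 35368665 to 35374678, minus strand, NCBIM37) had the lowest coefficients of variation among females (6.6% under GH and 6.8% under SI), with 41.1 to 49.9 CPM under GH (median 46.4) and 40.3 to 49.03 CPM under SI (median 46.7). The female Log2FC was 0.024 (-0.071 to 0.119, adjusted p = 0.822). Among SI males 4 of 7 were below the lowest GH male: animals 25, 33 and 39 had 35.7, 34.2 and 32.9 CPM, the next SI male 33.4 CPM, and GH males 40.2 to 57.3 CPM (median 46.96). The male Log2FC was -0.137 (-0.306 to 0.031, adjusted p = 0.457) and -0.040 without the 3 mice (adjusted p = 0.831).

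Lrrtm3 (ENSMUSG00000042846, chromosome 10, 63391220 to 63553025, minus strand, NCBIM37), the member with the fewest counts, had 16.5 to 22.6 CPM in GH females (median 19.9) and 17.7 to 23.8 CPM in SI females (median 19.6). The female Log2FC was 0.017 (-0.083 to 0.118, adjusted p = 0.884). In males the levels were 18.4 to 26.4 CPM under GH (median 21.3) and 16.5 to 22.99 CPM under SI (median 20.9), with a Log2FC of -0.071 (-0.267 to 0.126, adjusted p = 0.766).

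Counted together, 0 of the 9 genes were DEGs in females, where 3.89% of 16026 genes were called. At an unadjusted p under 0.05, 2 of the 9 were counted (Lrrtm1 and Lrrtm4), against 20.2% of all genes, and DESeq2 with the same surrogate variables called 0 of the 9 against 7.86% of all genes. The median Log2FC of the 9 was 0.024, against 0.008 over all genes tested, and their intervals in females lay between -0.178 and 0.259. In males edgeR called 0.0% of 15833 genes, hence 0 of the 9, and 0 of the 9 had an unadjusted p under 0.05 against 13.0% of all genes. DESeq2 called 0.259% of genes in males and 0 of the 9. The median male Log2FC of the 9 was 0.060 against -0.002 over all genes, with intervals between -0.306 and 0.517. These male counts depended on 1 library: without SI male 27, edgeR called 2414 of 15790 genes, and still 0 of the 9, the lowest adjusted p being 0.0633 for Lrrtm2 and 0.0687 for Nrxn3.

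The effect of isolation was not found to differ between the sexes for any of the 9 genes. Interaction adjusted p-values were 0.768 to 0.963, and 0 of the 9 had an unadjusted p under 0.05 (edgeR called 0.0061% of 16391 genes and 7.03% at the unadjusted level, DESeq2 0.0732%, again 0 of the 9). The widest interaction was that of Nrxn3, 0.228 (-0.141 to 0.597), where the estimate is the male minus the female Log2FC. Without SI males 25, 33 and 39 it was 0.063.

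**Figure D3:**
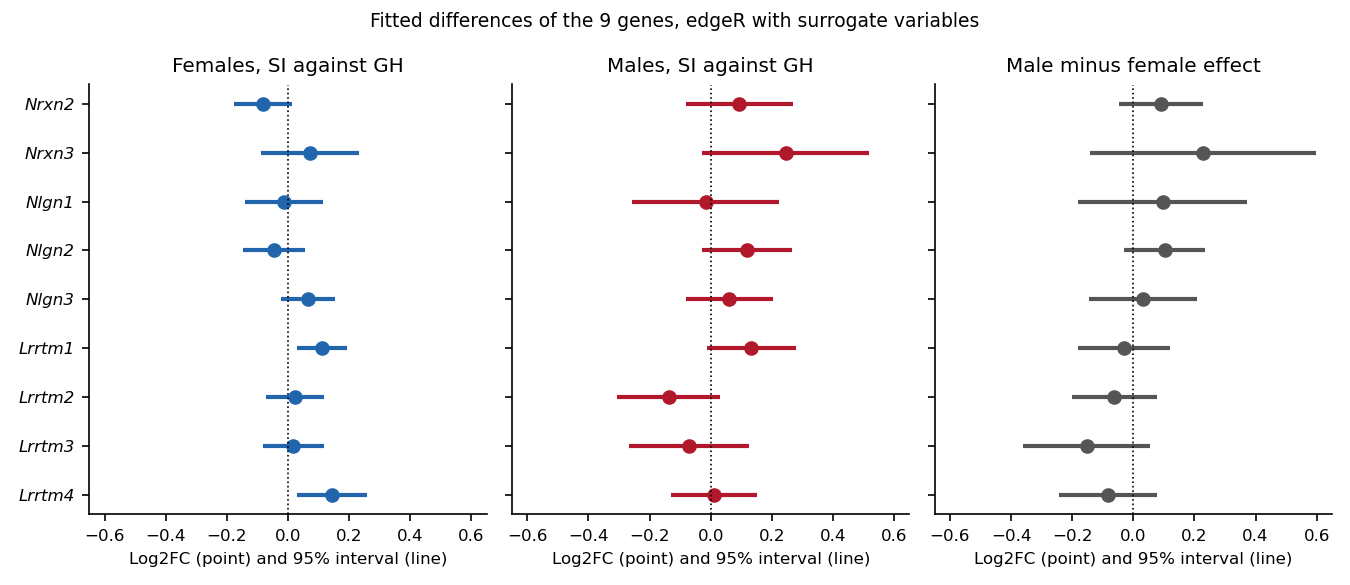
Fitted Log2FC (points) and 95% intervals (lines) of SI against GH in females and in males, and of the male minus the female effect, for the 9 genes. In females the intervals of Lrrtm1 (0.030 to 0.193) and Lrrtm4 (0.028 to 0.259) lie above 0 before adjustment, and in males and in the interaction all intervals include 0.

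Ratios of 2 genes within a family were compared because they do not depend on how libraries are scaled. The ratio of Nlgn1 to Nlgn2 sets a neuroligin of excitatory synapses against one of inhibitory synapses. Its log2 count ratio was -2.22 to -1.85 in GH females (median -2.04) and -2.38 to -1.84 in SI females (median -2.05). The means differed by -0.002 (two-sided p = 0.981 in an exact permutation test of all 6435 splits, adjusted p = 0.981 over 8 ratio tests). GH males had -2.38 to -1.98 (median -2.10) and SI males -2.70 to -1.39 (median -2.07), so the SI males spread to both sides of the GH males and the means differed by 0.089 (exact permutation p = 0.583, adjusted p = 0.777). Without animals 25, 33 and 39 the sign turned, to -0.151 (exact permutation p = 0.263).

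The ratio of Nrxn3 to Nrxn2 was higher on average under SI in both sexes without passing the threshold. In females it was -2.06 to -1.51 under GH (median -1.88) and -1.87 to -1.49 under SI (median -1.65), a difference of 0.168 (exact permutation p = 0.0713, adjusted p = 0.190). In males it was -2.11 to -1.60 under GH (median -1.75) and -2.03 to -0.754 under SI (median -1.32), a difference of 0.373 (exact permutation p = 0.0539, adjusted p = 0.190), which was 0.054 without the 3 mice (exact permutation p = 0.701). Nlgn3 to Nlgn2 gave the only unadjusted p under 0.05 among the 8 tests, a difference of 0.089 in females (exact permutation p = 0.0429, adjusted p = 0.190), with -1.17 to -0.960 under GH and -1.12 to -0.875 under SI. In males that difference was 0.135 (exact permutation p = 0.240) and -0.061 without the 3 mice (exact permutation p = 0.343). Lrrtm4 to Lrrtm1 differed by 0.020 in females (exact permutation p = 0.821) and by -0.051 in males (exact permutation p = 0.571).

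Levels of several of the 9 genes followed the length slope of the library. After the mean of each group was subtracted, Spearman's rho between log2 CPM and the length slope over the 30 mice was 0.915 for Nlgn2, 0.887 for Nlgn3, 0.723 for Lrrtm1 and 0.688 for Nlgn1. It was 0.652 for Nrxn2, 0.612 for Lrrtm2, 0.538 for Lrrtm4, 0.164 for Nrxn3 and -0.065 for Lrrtm3. Without the 3 mice the values for Nlgn2, Nlgn3 and Nrxn3 were 0.796, 0.918 and 0.661. Against the slope of the library on GC content, rho over the 30 mice was 0.84 for Nrxn2, 0.748 for Nlgn2 and 0.699 for Lrrtm1. For the other genes it was -0.033 to 0.574. SI males 25, 33 and 39 had the lowest GC slopes of the 30 mice. These correlations are descriptions, since each gene is part of the library whose slope is measured. SI males 25, 33 and 39 also lay outside the range of GH males in several marker sums: their interneuron sums were 905 to 978 CPM, against 684 to 834 CPM in GH males, and their dentate granule cell sums 119, 138 and 138 CPM, against 182 to 273 CPM. Their sums were also above the GH males for oligodendrocytes (8187 to 10617 against 5875 to 7793 CPM), microglia (376 to 438 against 273 to 330.0 CPM) and endothelial cells (227 to 279 against 127 to 190.0 CPM), and below them for oligodendrocyte precursors (76.6 to 97.2 against 130.0 to 175 CPM). The part of any of these in the Nlgn2 and Nlgn3 levels of these mice was not tested. Over all males the sum of 4 striatum markers was 16.7 to 21.1 CPM in GH and 19.4 to 23.4 CPM in SI. The difference gave an exact permutation p of 0.00622 (adjusted p = 0.0761). All 4 thalamus markers had positive male Log2FC (median 0.544) with unadjusted p under 0.05 (edgeR), against 13.0% of all genes. Of these 0 were called, and their sum gave an exact permutation p of 0.156. The part of either list in the male Log2FC was not tested.

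**Figure D4:**
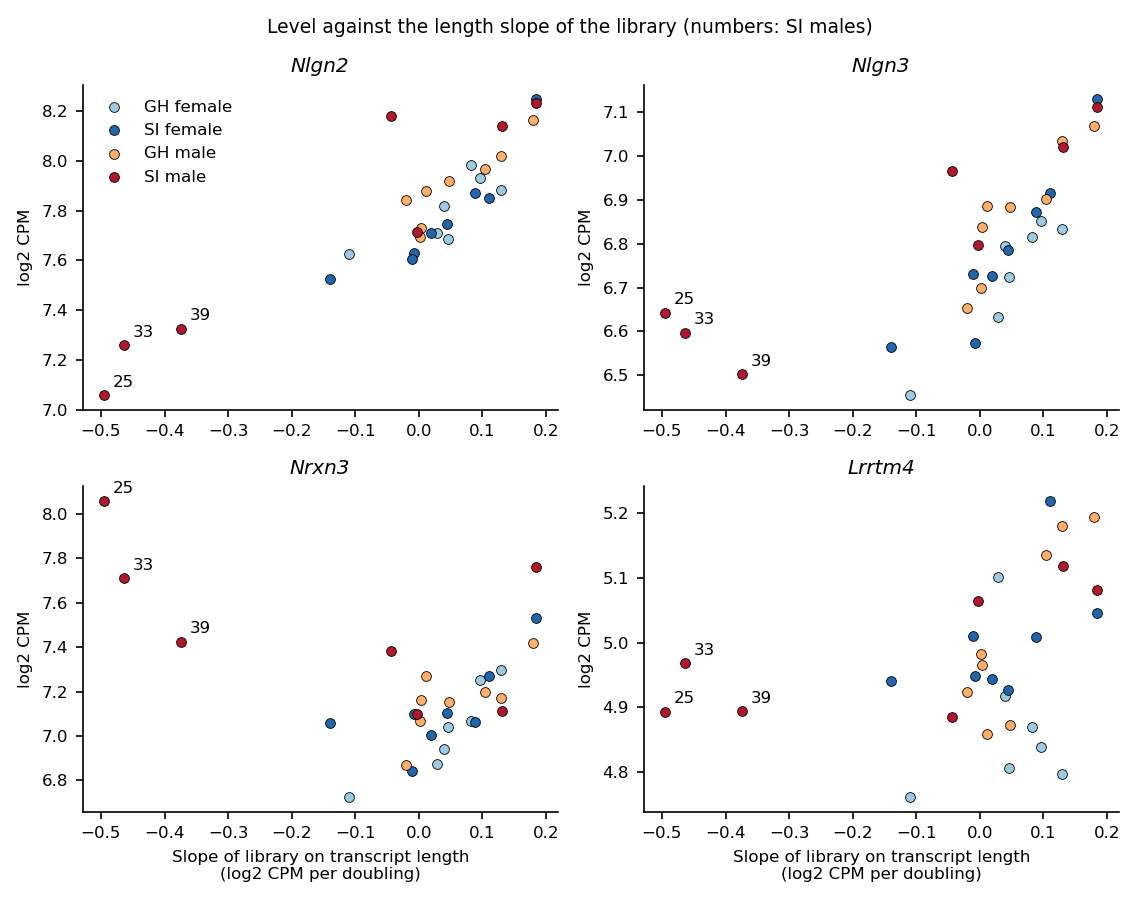
Log2 CPM of Nlgn2, Nlgn3, Nrxn3 and Lrrtm4 against the slope of each library on transcript length (log2 CPM per doubling of length), 1 point per mouse. SI males 25, 33 and 39, labelled by number, have slopes of -0.495 to -0.374 and lie lowest for Nlgn2, while for Nrxn3 animal 25 has the highest level of all mice (266 CPM).

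Across mice most pairs of the 9 genes had a positive rho (29 of 36), some of them close to 0, and Lrrtm3 did not rise with the others. Over the 36 pairs of genes the median Spearman's rho of log2 CPM within groups was 0.417 (from -0.422 to 0.922), and 0.402 without the 3 mice. The closest pair was Nlgn2 and Nlgn3 (0.922), followed by Nrxn2 and Nlgn2 (0.865) and Nlgn2 and Lrrtm1 (0.863). Lrrtm3 gave values from -0.422 with Nrxn3 to 0.043 with Lrrtm2. Low values were also those of Nrxn3 with Lrrtm2 (0.025) and Lrrtm4 (0.058), and of Nrxn2 with Lrrtm2 (0.149, and -0.121 without the 3 mice). The pairs share libraries, depth and the length slope, and rho is given as a description.

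Promoters of 3 of these genes, Nlgn2, Lrrtm1 and Lrrtm3, are shown to give the sequence at their starts. The genes were picked for the correlations above, so nothing is drawn from a comparison of the windows. They are RefSeq sequences on GRCm38.p6, from 250 bases before to 50 after the start of the gene, printed 5′ to 3′ on the strand of the gene with each CG in capitals. Entries of 6 of the 9 genes were read.
Nlgn2, chr11:69837735-69838034, minus strand: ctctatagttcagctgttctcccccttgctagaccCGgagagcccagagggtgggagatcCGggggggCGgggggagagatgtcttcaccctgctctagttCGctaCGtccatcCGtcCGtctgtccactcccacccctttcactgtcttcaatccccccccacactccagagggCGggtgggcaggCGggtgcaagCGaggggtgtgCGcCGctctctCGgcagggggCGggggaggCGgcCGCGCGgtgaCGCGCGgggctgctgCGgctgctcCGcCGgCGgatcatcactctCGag
Lrrtm1, chr6:77242227-77242526, plus strand: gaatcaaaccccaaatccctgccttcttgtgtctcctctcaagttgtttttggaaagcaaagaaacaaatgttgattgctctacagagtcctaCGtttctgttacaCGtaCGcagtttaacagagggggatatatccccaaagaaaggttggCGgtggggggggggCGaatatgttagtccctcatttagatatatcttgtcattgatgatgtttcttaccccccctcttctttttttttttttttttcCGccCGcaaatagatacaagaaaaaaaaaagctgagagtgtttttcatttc
Lrrtm3, chr10:64090206-64090505, minus strand: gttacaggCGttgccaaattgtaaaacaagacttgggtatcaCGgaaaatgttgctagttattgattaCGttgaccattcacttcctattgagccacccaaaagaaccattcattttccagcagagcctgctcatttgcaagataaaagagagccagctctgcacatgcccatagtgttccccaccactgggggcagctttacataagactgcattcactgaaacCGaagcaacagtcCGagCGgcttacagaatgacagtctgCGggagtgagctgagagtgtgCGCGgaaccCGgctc
The Nlgn2 window held 26 CG and 68.7% G or C, and 83.1% of the 32851 promoters in the table held fewer CG. The Lrrtm1 window held 7 CG and 40.7% G or C, and that of Lrrtm3 10 CG and 48.7%, against medians of 7 CG and 52.7% over all promoters. The letters GGGCGG of the GC box were found, on either strand, in the windows of Nlgn2 and Lrrtm1 and in 35.7% of all promoters, and TGACG, part of the cyclic AMP response element, in Nlgn2 and in 20.8%. CCAAT (37.4% of all promoters) and TATAAA (13.6%) were in none of the 3 windows. A match describes these letters only.

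Genes outside the families whose levels most resembled those of a member were named by the highest Spearman's rho over the 30 mice within groups. For Nlgn2 these were Slc6a17 and Nol6 (both 0.976), for Nlgn3 Celsr2 (0.967) and Dscaml1 (0.950), and for Lrrtm1 BC018242 (0.947) and Unc5a (0.943). Nrxn3 was most like Ppp1r12a (0.943) and Atp2b1 (0.933), Nlgn1 most like Opcml (0.937) and Slc8a1 (0.913), and Lrrtm2 most like Eif5a2 (0.932) and Gdap1 (0.931). Nrxn2 followed at 0.907 with Lmtk3 and 0.904 with Tbc1d22b. Lower values were the highest that Lrrtm4 (Pcdh20, 0.790, and Scn3a, 0.787) and Lrrtm3 (Tmem143, 0.717, and Prr16, 0.693) reached with any gene. Without the 3 mice the values of these 18 pairs were 0.667 to 0.964.

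Among the scaffolds that bind these adhesion proteins, 3 genes were lower in SI females: Dlg4, Dlg2 and Apba1. In a list of 12 scaffolds and regulators of neuroligins and LRRTM proteins, 2 fell and 0 rose in females, where 3.89% of all genes were called, and 6 Log2FC were positive and 6 negative (median -0.002). The related scaffold gene Dlg3, named after its value was seen, had 0.132 (adjusted p = 0.0757). Dlg4 encodes PSD-95, the scaffold of excitatory postsynaptic densities that binds neuroligins. Its level was 999 to 1294 CPM in GH females (median 1112) and 893 to 1049 CPM in SI females (median 963), where 7 of 8 SI mice were below the lowest GH mouse, and the Log2FC was -0.182 (SE 0.0417, adjusted p = 0.0242). Dlg2, which encodes the related scaffold PSD-93, had 269 to 362 CPM in GH (median 331) and 237 to 313 CPM in SI females (median 270), all 8 SI mice lying below the GH median, with a Log2FC of -0.191 (SE 0.0482, adjusted p = 0.0374). Of the 6 presynaptic scaffolds of neurexins 1 fell in females, against the same 3.89% of all genes: Apba1, which encodes Mint1, had 256 to 319 CPM in GH (median 275) and at most 263 CPM in SI (median 232), 7 of 8 SI mice being below the lowest GH mouse (Log2FC -0.244, SE 0.0544, adjusted p = 0.0214). Lin7b of the same list, also named after its value was seen, had 0.136 (adjusted p = 0.121).

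In males 0 of these scaffolds passed the test, and the lowest levels of Dlg4, Dlg2 and Apba1 were again those of animals 25, 33 and 39. Dlg2 had 266 to 358 CPM in GH males, and 105, 84.7 and 130.0 CPM in these 3 mice (male Log2FC -0.393, adjusted p = 0.295). Dlg4 had 745, 588 and 810 CPM there, against 963 to 1063 CPM in GH males. Of 9 alternative settings Dlg4 was called in 6, Dlg2 in 4 and Apba1 in 7, and all 3 calls were lost without surrogate variables and with the position digit of the sample titles as a factor, settings under which edgeR called 0 genes in females. The neuronal marker sum of the same females was 0.110 higher under SI on the log2 scale and the difference of their astrocyte sum was -0.248, and the part of either in the scaffold values was not tested. Leaving out 1 female at a time, Dlg4 was called in 9 of 15 fits, Dlg2 in 6 and Apba1 in 10, with Log2FC below 0 in all of them. Whether the change of a scaffold differed from that of an adhesion gene was not tested.

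Other partners were not called in either sex. Of 20 extracellular partners of neurexins, 0 passed in females (3.89% of all genes were called), where 9 Log2FC were positive and 11 negative (median -0.051), and 0 in males (0.0% of all genes), where 17 were positive (median 0.080). The smallest female p-values belonged to Igsf21, a neurexin 2 ligand of inhibitory synapses (Log2FC -0.166, adjusted p = 0.0850), and to the secreted neurexophilin genes Nxph3 (-0.242, adjusted p = 0.131) and Nxph1 (-0.110, adjusted p = 0.132). In males C1ql2, a secreted C1q-like gene, had a Log2FC of 0.243 (adjusted p = 0.350) and Nxph4, another neurexophilin gene, one of 0.405 (adjusted p = 0.375). Among 26 other synaptic adhesion genes 0 passed in either sex (female median 0.011, male median 0.044), the lowest adjusted p being 0.0569 for the receptor phosphatase gene Ptprf in females (-0.165). The 3 STAR factors that regulate neurexin splicing, Khdrbs1, Khdrbs2 and Khdrbs3, had female Log2FC of 0.034, 0.070 and 0.131 (adjusted p = 0.731, 0.663 and 0.165). Exon use itself is not seen in counts per gene.

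**Figure D5:**
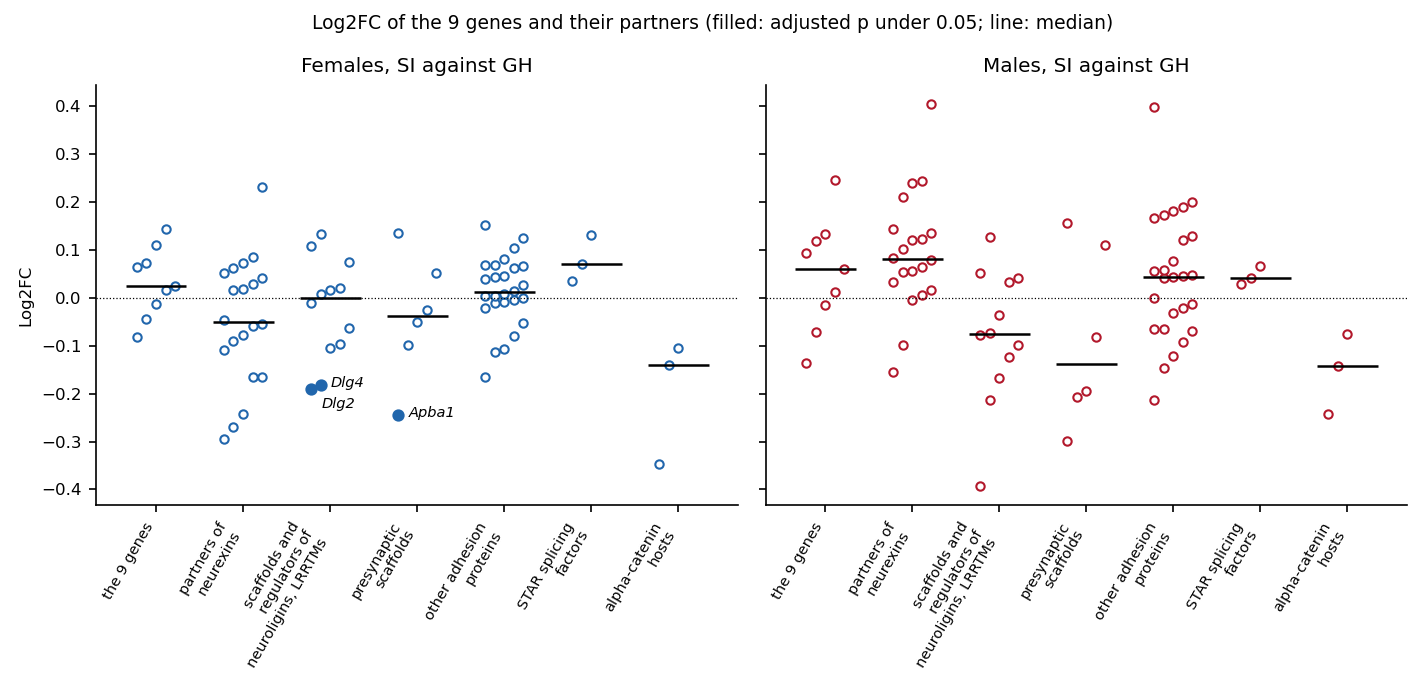
Log2FC of SI against GH for the 9 genes and for the 6 lists of partners and hosts, 1 point per gene, in females and males, with a line at each median and filled points for an adjusted p under 0.05. The filled points are Dlg4 (-0.182), Dlg2 (-0.191) and Apba1 (-0.244) in females, and all points of the males are open.

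Lrrtm1, Lrrtm2 and Lrrtm3 each lie inside an intron of an alpha-catenin gene, on the opposite strand and with no exon in common (GENCODE vM1): Lrrtm1 in Ctnna2, Lrrtm2 in Ctnna1 and Lrrtm3 in Ctnna3. Alpha-catenins link cadherins to the actin cytoskeleton. All 3 host genes had negative Log2FC in females, with unadjusted p under 0.05 in the edgeR test (20.2% of all genes) and 0 past the threshold. The 3 genes inside them had positive values, those of Lrrtm2 and Lrrtm3 with intervals that include 0. With 1 mouse left out, Lrrtm2 reached -0.016 and Lrrtm3 -0.006. Ctnna1 had 68.5 to 97.2 CPM in GH and 68.5 to 74.6 CPM in SI females (Log2FC -0.140, adjusted p = 0.0703), against 0.024 for Lrrtm2. Ctnna2 had 91.7 to 101 CPM in GH and 85.7 to 96.2 CPM in SI females, with 6 of 8 SI mice below the lowest GH mouse (Log2FC -0.104, adjusted p = 0.127), against 0.111 for Lrrtm1. Ctnna3, at 0.688 to 1.69 CPM, gave -0.346 (adjusted p = 0.203), against 0.017 for Lrrtm3. In males the host genes had -0.076, -0.143 and -0.242 (adjusted p = 0.660, 0.349 and 0.602). Whether host and inner gene differed was not tested, and without a stated strand setting intronic reads of the host cannot be told apart from reads of the gene inside it.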

How the data were processed

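The authors trimmed paired-end, poly(A)-selected reads with Trimmomatic 0.39, quantified them with Salmon 1.8.0 and deposited raw counts, as whole numbers for each gene in each mouse (the submitters' processing notes name GRCm39/mm39; the annotation is not given in the sources used here). All columns were matched to the 30 mice by name, and 0 were left over. Symbols were matched for 16439 of 17477 IDs (94.1%), and lengths and positions were taken from GENCODE vM1 on NCBIM37. That is not the build of the counts, and the table gives no coordinates of its own.

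Counts were analysed in R 4.3.3 with edgeR 4.0.16: filterByExpr (minimum count 10, minimum total 15), TMM, and glmQLFit and glmQLFTest for SI against GH within each sex, with 3 surrogate variables in females and 2 in males (svaseq, sva 3.50.0, 20 permutations, seed 1). The interaction was fitted on all 30 mice with 4. P-values were adjusted by Benjamini-Hochberg over all genes tested, with a threshold of 0.05. Log2 CPM used a prior count of 2. Ratios and marker sums were compared within each sex by exact permutation tests, two-sided, that enumerate the 6435 ways to divide 15 mice. Alternatives were DESeq2 1.42.0, limma-voom (limma 3.58.1), no surrogate variables, DESeq2 size factors, 2 other filters, the digit in the sample titles as a factor, removal of length and GC trends (lowess span 0.3), 1 fit of all groups, and leaving out mice.

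Named genes are the 9 members, in each partner list the genes called (or else those with the smallest p), and for each member the 2 genes of highest Spearman's rho. The result of 1 named partner gene is not reported here. Members, partner lists and marker lists were chosen with earlier results of these data known. Replicates are separate mice. GH mice shared cages and SI mice did not, and the labels do not give the cage of a mouse. All tests therefore treated mice as independent, which GH mice of the same cage may not be. None of the 98 pairs of mice within groups agreed within sampling noise (chi-square per degree of freedom 8.91 to 457), so the spread between mice, not depth, limits the precision.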

Additional observations from a re-analysis of the deposited data

Results flagged for a closer look

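Of the 52 sets of values examined (each of the 9 genes and 4 ratios in each group), 3 held a mouse that lay far from the rest of its group by Dixon's criterion, and chance flags about 1 in 20 such sets. Levels below are in CPM, whereas gaps and ranges were taken on log2 CPM. SI female 45 had 576 CPM of Nrxn2, with a gap to the next mouse of 0.528 of the range of the group, and its library was the deepest of all (100844898 counts). GH female 78 had 43.4 CPM of Nlgn1, below the other GH females by 0.618 of the range. SI female 63 had 37.2 CPM of Lrrtm4, above the other SI females by 0.590 of the range, and without it the female Log2FC of Lrrtm4 was 0.107 (adjusted p = 0.325, edgeR).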

How the results depend on the processing

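Under the alternative settings other than those that leave out a single mouse (fits without SI males 25, 33 and 39 included), 21 of 207 Log2FC of the 9 genes had the other sign and 1 was called: with the length and GC trend removed, 1 gene passed in females (Lrrtm1, 0.121, adjusted p = 0.0364, edgeR). With 1 mouse left out, 21 of 270 had the other sign and 3 were called, so that the female count ranged from 0 to 1: Lrrtm1 without GH female 46 (adjusted p = 0.0266) or SI female 41 (0.0400), and Lrrtm4 without GH female 47 (0.0357). In the same fits female Lrrtm1 ranged from 0.049 (without GH female 71) to 0.172 and Lrrtm4 from 0.107 (without SI female 63) to 0.183. The cause of these changes was not tested. Over all genes the count of DEGs with 1 mouse left out was 88 to 1373 in females and 0 to 2414 in males. In males, without surrogate variables the other sign was found for Nrxn2 (-0.012), Nlgn2 (-0.135), Nlgn3 (-0.053) and Lrrtm4 (-0.028), and with the position digit for Nrxn2 (-0.073), Nlgn2 (-0.185), Nlgn3 (-0.102), Lrrtm1 (-0.004) and Lrrtm4 (-0.013). Male Nlgn1 was 0.006 with at least 10 counts in every mouse, 0.066 with the trend removed, 0.092 in 1 fit of all groups, 0.098 without SI males 25, 33 and 39, and 0.029 without these and without surrogate variables, a setting chosen after seeing the data. Male Lrrtm2 was 0.001 with the trend removed and male Lrrtm3 0.008 with limma-voom, and female Nlgn2 was 0.008 with the position digit. The interaction without surrogate variables was -0.071 for Nlgn1, -0.117 for Nlgn2 and -0.118 for Nlgn3, and without the 3 males -0.005 for Nlgn3. Without the 3 males the male ratio differences were -0.151 for Nlgn1 to Nlgn2 and -0.061 for Nlgn3 to Nlgn2.

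With 1 mouse left out, Log2FC in females ranged from -0.052 to 0.026 for Nlgn1, -0.016 to 0.040 for Lrrtm2 and -0.006 to 0.044 for Lrrtm3, and in males from -0.017 to 0.139 for Nrxn2, -0.158 to 0.074 for Nlgn1 and -0.013 to 0.063 for Lrrtm4. Ratio differences ranged from -0.033 to 0.045 for Nlgn1 to Nlgn2 and -0.031 to 0.068 for Lrrtm4 to Lrrtm1 in females, and from -0.019 to 0.198 and -0.087 to 0.006 in males. No paired analysis was possible because every mouse has its own number and the groups share none.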
